A study of Homo sapiens with 6 samples.

Results

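LCN2, SLPI and 8 further genes of secreted epithelial defence (PI3, WFDC2, DEFB1, S100P, S100A8, S100A9, SAA1 and the LCN2 receptor gene SLC22A17) were followed in HCT116 cells labelled si-NC or si-STRIP2. These 10 genes were taken from the deposited table of 61806 genes by symbol, and all 10 were found. They had been chosen with the difference between these same groups in view, so that their levels and fold changes are a description and carry no test. HCT116 is an established human colorectal cancer line, and the study's title links STRIP2, a scaffold subunit of STRIPAK phosphatase complexes, to LCN2 and ferroptosis. The 3 si-NC libraries are labelled wildtype and the 3 si-STRIP2 libraries STRIP2 knockdown. Both groups were grown in the same serum-supplemented medium with penicillin and streptomycin. All cells came from a single line, and the dose, the time after knockdown and the number of different small interfering RNAs are not given in the sources used here. Nor is it stated that replicate libraries were separate cultures, so that p-values measure only the spread between these libraries, which may be technical.

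Epithelia that face microbes secrete proteins that starve, kill or contain them and inhibitors that protect the tissue from proteases. LCN2 (lipocalin 2) binds bacterial siderophores, the small molecules with which bacteria take up iron, and SLC22A17 encodes a cell-surface receptor for it. SLPI, PI3 (elafin) and WFDC2 carry whey acidic protein (WAP) domains, and SLPI and PI3 inhibit neutrophil elastase. DEFB1 is a constitutive beta-defensin, S100A8 and S100A9 pair to form calprotectin, which withholds zinc and manganese, S100P is a calcium-binding relative, and SAA1 is an acute-phase apolipoprotein. Several of these genes are known as targets of NF-kB, C/EBP and AP-1 factors in inflamed mucosa.

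Because LCN2 differed between the groups and the groups overlapped for its receptor gene, the DNA before the RefSeq start sites of both is shown. The sequences are RefSeq's, from GRCh38.p14, read 5′ to 3′ on the strand of the gene, and end 1 base before the LCN2 start and 26 bases before the SLC22A17 start. They are chr9:128149265-128149452 on the plus strand for LCN2 and chr14:23352913-23353137 on the minus strand for SLC22A17. The deposited annotation starts LCN2 farther upstream, at base 128149071, so that the LCN2 stretch lies inside the gene as annotated there. Both stretches were cut at bases that GENCODE annotates as untranslated region, which left 188 and 225 of the 250 bases searched. Capitals mark every match to the motifs named below.
LCN2: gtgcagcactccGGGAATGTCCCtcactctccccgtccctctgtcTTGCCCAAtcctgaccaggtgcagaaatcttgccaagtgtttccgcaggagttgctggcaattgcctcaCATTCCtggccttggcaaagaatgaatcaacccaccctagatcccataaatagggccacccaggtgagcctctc
SLC22A17: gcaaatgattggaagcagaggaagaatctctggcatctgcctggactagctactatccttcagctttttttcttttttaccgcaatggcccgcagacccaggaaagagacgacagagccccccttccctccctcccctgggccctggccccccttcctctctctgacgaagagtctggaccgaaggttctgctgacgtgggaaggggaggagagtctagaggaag

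The 250 bases before each RefSeq start were searched on both strands for 5 motifs. These were a kappaB core (GGG, any 5 bases, then CC), AP-1 (TGAGTCA), C/EBP (TTNNGCAA), TEAD (GGAATG) and a TATA box (TATAAA). LCN2 held a kappaB core (GGGAATGTCC) 176 to 167 bases before its start and a second match on the other strand that shares all but 1 of its bases. The same stretch contains a TEAD match at 175 to 170 bases, and a second TEAD match lay on the other strand at 74 to 69 bases. A C/EBP match, also on the other strand, lay at 143 to 136 bases. The AP-1 and TATA letters were not in the LCN2 window. Over all 35114 windows of this length in the RefSeq table, 54.4% held the kappaB core, 4.2% the AP-1 letters, 9.05% the C/EBP letters, 11.9% the TEAD letters and 10.7% the TATA letters. None of the 5 motifs was found in either of the windows of SLC22A17. The table held 9 start sites for 6 of the 10 genes, and the AP-1 letters were in none of them. The TATA letters lay 28 to 23 bases before the S100P start and 29 to 24 bases before those of S100A9 and of S100A8 at base 153391073. WFDC2 had 2 kappaB matches, at 225 to 216 and at 67 to 58 bases. S100A8 had 2 that overlap, at 48 to 39 and 47 to 38 bases before its start at base 153390976, and the TATA letters were in that window too. A match of letters is a description and does not show that a factor binds there. SLPI, PI3, DEFB1 and SAA1 had no entry.

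Total counts ran from 17184963 to 21721218 per library. STRIP2 itself fell from 3.59 ± 0.347 to 2.61 ± 0.0929 FPKM (SD, n = 3 libraries per group), where FPKM is the number of fragments scaled by exonic length and by the library's total. The STRIP2 groups did not overlap (log2 fold change -0.46, SE 0.083, edgeR adjusted p = 1.62e-05). Mitochondrial genes took 4.88% to 8.88% of the counts. Across genes, log2 levels correlated at 0.996 to 0.997 within groups and at 0.983 to 0.985 between them. The cell line's labelled type was checked against 10 colon epithelial markers. EPCAM, KRT8, KRT18 and KRT19 were between 122 and 213 FPKM in every library, whereas KRT20 was below 1 FPKM and CDX1 had 0 counts. The remaining markers were also low or near 0. CDX2 was between 2.2 and 3.51 FPKM and CLDN3 between 1.64 and 3.11 FPKM. VIL1 had at most 3 counts in a library and CEACAM5 at most 1. Of 9 neutrophil and myeloid markers, whose cells are a major source of LCN2 and calprotectin in tissue, no marker exceeded 0.12 FPKM. Their summed level was 0.14 to 0.25 FPKM in si-NC and 0.12 to 0.24 in si-STRIP2, and CSF3R, FCGR3B and CEACAM8 had 0 counts.

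LCN2 (ENSG00000148346, chromosome 9, 128149071 to 128153453, plus strand) was measured at 6.29, 6.44 and 6.34 FPKM in the si-NC libraries and at 0.57, 0.32 and 0.40 FPKM in the si-STRIP2 libraries. Every si-NC library was more than 10 times as high as any si-STRIP2 library. The raw counts were 218, 178 and 174 against 17, 9 and 11. The group means were 6.36 ± 0.0764 and 0.430 ± 0.128 FPKM (SD, n = 3), which left 6.76% of the si-NC level. The fitted log2 fold change was -3.87 (SE 0.185), or 14.6-fold lower. The ratio of summed counts, scaled to depth, was 14.7-fold lower, with an exact 95% interval of 10.5 to 21.0 that covers counting error only. In bulk RNA, a smaller number of LCN2-expressing cells and less LCN2 RNA per cell cannot be told apart.

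The spread of LCN2 between libraries was close to or below what its counts alone would give. In si-NC the coefficient of variation was 1.20%, against 7.25% from counting error. In si-STRIP2 it was 29.7%, against 28.5%. Of the tested genes, 63.0% lay below LCN2 in mean FPKM in si-NC and 12.9% in si-STRIP2. LCN2 thus moved from a middling level to the low end of the tested range. Among 15687 tested genes, 2 had a lower fitted log2 fold change, and 1 of them was among the 11833 genes at 1 FPKM or more in si-NC.

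SLPI (ENSG00000124107, chromosome 20, 45252239 to 45254564, minus strand), the secretory leukocyte protease inhibitor, was at 7.11, 6.78 and 6.64 FPKM in si-NC. In si-STRIP2 it was at 0.45, 0.67 and 0.49 FPKM. Like LCN2, it was high in all 3 si-NC libraries and low in all 3 si-STRIP2 libraries. The counts behind these levels were 92, 70 and 68 against 5, 7 and 5. Means were 6.84 ± 0.241 and 0.537 ± 0.117 FPKM (SD, n = 3), so that 7.84% of the si-NC level was measured in si-STRIP2. The fitted log2 fold change was -3.66 (SE 0.273), or 12.6-fold lower, and the ratio of summed counts was 12.9-fold lower (exact 95% counting interval 7.87 to 22.5). That interval overlaps the interval of LCN2, and the size of the loss could not be told apart between the pair at this depth.

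LCN2 and SLPI also stood at similar levels per length in si-NC. Pooled over the si-NC libraries, SLPI was at 6.86 FPKM (exact 95% counting interval 6.01 to 7.81) and LCN2 at 6.35 FPKM (5.84 to 6.90). In si-NC the FPKM of LCN2 divided by that of SLPI was 0.930 ± 0.0391, and in si-STRIP2 it was 0.854 ± 0.396 (SD, n = 3). The second ratio comes from 9 to 17 LCN2 counts and 5 to 7 SLPI counts per library. The genes are on different chromosomes.

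SLC22A17 (ENSG00000092096, chromosome 14, 23346314 to 23352912, minus strand), the receptor gene, had levels of 0.56, 0.51 and 0.76 FPKM in si-NC and at 0.79, 0.60 and 0.56 FPKM in si-STRIP2. The groups overlapped. Means were 0.610 ± 0.132 and 0.650 ± 0.123 FPKM (SD, n = 3), with a fitted log2 fold change of 0.09 (SE 0.200). The ratio of summed counts (146 in si-NC, 149 in si-STRIP2), scaled to depth, was 1.07, with a counting interval of 0.848 to 1.36. The FPKM ratio of LCN2 to its receptor gene was 11.2, 12.6 and 8.34 in the si-NC libraries and 0.722, 0.533 and 0.714 in the si-STRIP2 libraries. LCN2 transcripts per length therefore exceeded receptor transcripts in all si-NC libraries and lay below them in all si-STRIP2 libraries.

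**Figure D1:**
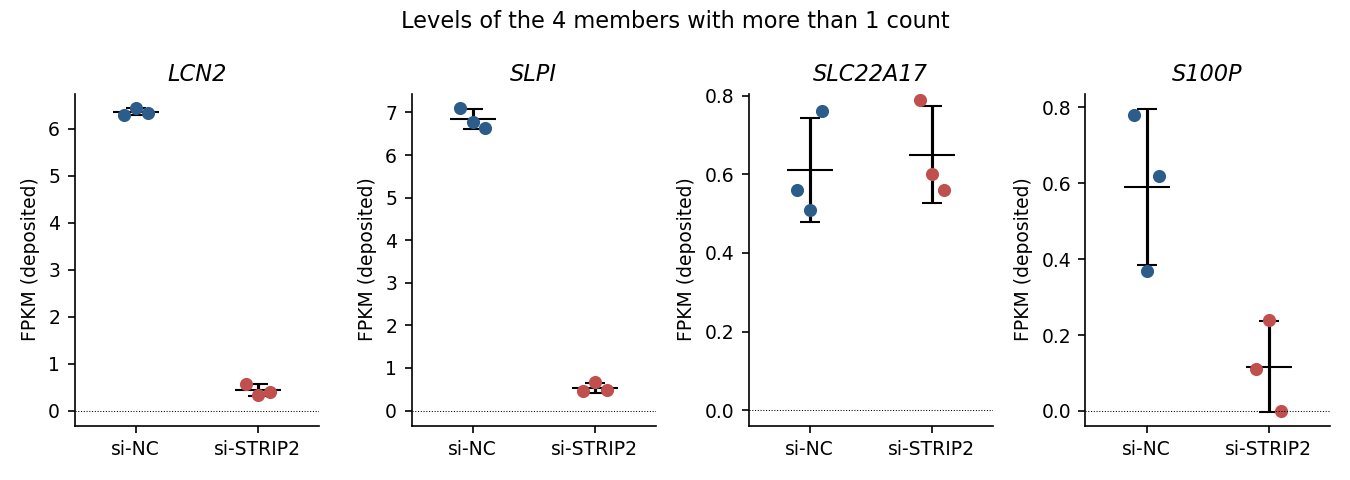
FPKM (vertical axes, linear, a separate scale in each panel) of LCN2, SLPI, SLC22A17 and S100P in the 3 si-NC and 3 si-STRIP2 libraries; points are libraries, and bars give the mean and SD. LCN2 and SLPI lie between 6.29 and 7.11 FPKM in si-NC and below 1 FPKM in si-STRIP2, the SLC22A17 groups overlap, and S100P is below 1 FPKM throughout.

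S100P (ENSG00000163993, chromosome 4, 6693878 to 6697170, plus strand) was close to the limit of detection. Its counts were 8, 3 and 5 in si-NC and 1, 2 and 0 in si-STRIP2, which are 0.78, 0.37 and 0.62 against 0.11, 0.24 and 0 FPKM. The groups did not overlap, but all si-STRIP2 libraries lay below the 3 counts that a count of 0 allows, a floor of 0.293 to 0.371 FPKM. The summed counts of 16 and 3 give a level 5.07-fold lower, with a counting interval of 1.45 to 27.2. S100P fell under the filter on low counts and was not tested.

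The remaining 6 genes were at or near 0 in all 6 libraries. WFDC2 had 1 count, in si-NC library 3, and DEFB1 had 1 count, in si-NC library 1. PI3, S100A8, S100A9 and SAA1 had 0 counts in every library. The floors that a count of 0 allows were 0.251 to 0.317 FPKM for PI3 and 0.103 to 0.131 FPKM for WFDC2. They were 0.368 to 0.466 FPKM for DEFB1, 0.155 to 0.196 for S100A8, 0.241 to 0.305 for S100A9 and 0.130 to 0.164 for SAA1. SAA1 has a near-identical copy, SAA2, with 1, 3 and 0 counts in si-NC and 0, 2 and 2 in si-STRIP2, and how reads shared by the copies were counted is not given in the sources used here. No fold change can be given for these 6 genes.

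Thus 6 of the 10 genes had a count in any library, and 3 passed the filter that fits the test. LCN2 and SLPI were the 2 of these 3 that were lower in si-STRIP2 in every library, where 28.7% of all 15687 tested genes were without overlap lower and 58.6% without overlap in either direction. Both were also called lower at an adjusted p under 0.05, as were 27% of tested genes. Calls in both directions made up 54.8% of tested genes, since the groups differed in about as many genes upward (27.8%) as downward. A fitted fold change of 2-fold lower or more was rarer, at 2.91% of tested genes. These shares are background, and nothing is read from them for LCN2 and SLPI, which were chosen on this difference. Over all tested genes the median log2 fold change was 0.01 and the median of its size 0.26.

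Of the other tested genes at 1 FPKM or more in si-NC, those whose scaled profile over the 6 libraries lay nearest to LCN2 were KLHDC7B, RPSAP44, SLPI, LINC01512 and FOSB. Their Euclidean distances were 0.843, 1.07, 1.09, 1.18 and 1.25 on the log2 scale. The nearest to SLPI were KLHDC7B at 0.495, FOSB at 0.687, LINC01512 at 0.874, RPSAP44 at 0.969 and LCN2 at 1.09. The lists of nearest genes thus hold the same 4 further genes. Each profile was centred on its si-NC mean, so that the distance follows mainly the size of the difference between the groups. LCN2 and SLPI were chosen on that difference and had fitted values of similar size, so the shared genes follow from the choice. KLHDC7B averaged 1.20 FPKM in si-NC and 0.0867 FPKM in si-STRIP2. FOSB, an AP-1 subunit, averaged 3.03 and 0.340 FPKM, but the gene ERCC1, which overlaps it, held 367% as many counts. LINC01512, a long noncoding RNA gene that overlaps SCIRT (78.1% as many counts), averaged 0.133 FPKM in si-STRIP2. RPSAP44, a processed copy of the ribosomal protein gene RPSA whose reads may be shared with its parent, averaged 2.73 and 0.210 FPKM.

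**Figure D2:**
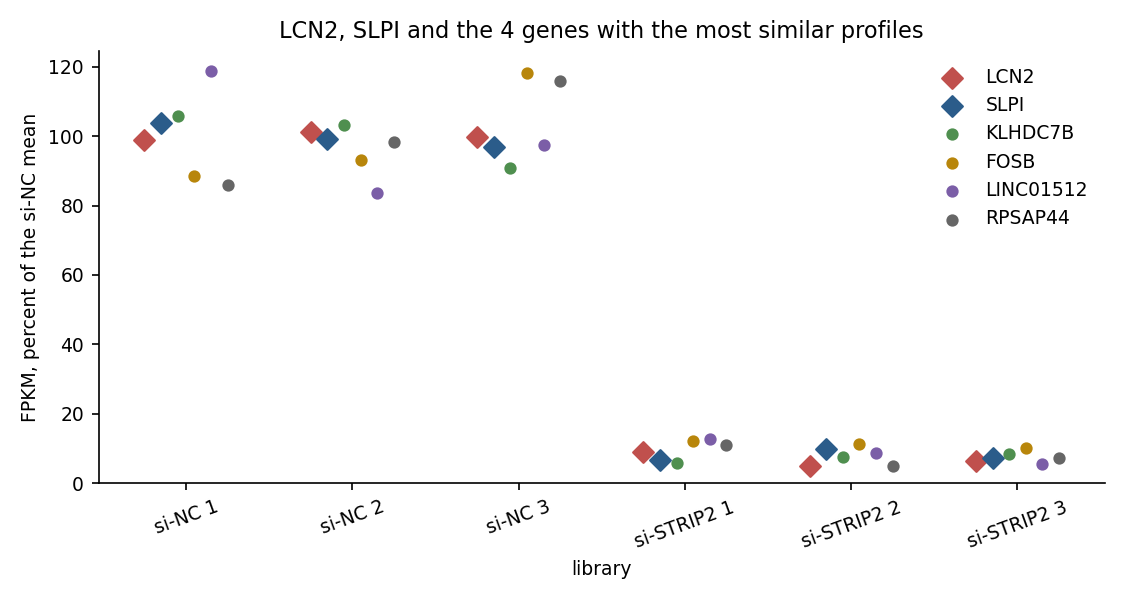
FPKM of each gene as a percent of its si-NC mean (vertical axis, linear) in each of the 6 libraries (horizontal axis); diamonds are LCN2 and SLPI and circles are the 4 further genes nearest to both. All 6 genes lie between 83.5% and 119% in si-NC and between 4.77% and 12.7% in si-STRIP2. The 4 further genes were picked for their likeness to LCN2 and SLPI, so that these bands follow from the choice.

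The relatives, partners and regulators of these genes were taken from 6 lists holding 158 genes, of which 73 were tested. Of those 73, 32 fell and 13 rose, so that 61.6% were called, beside 54.8% of all tested genes (27% lower and 27.8% higher). Their median log2 fold change was -0.15. The list of regulators held 24 of the 32 that fell and 2 of the 13 that rose, with a median of -0.38. The lists were made with earlier results of these data known. In the 5 lists of relatives, products and receptors, the untested genes stayed at or below 0.41 FPKM in every library.

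Protease inhibitors of related structure were mostly silent. Of 19 other genes with WAP or Kunitz domains, 3 were tested. SPINT2, a membrane-anchored Kunitz inhibitor of epithelial serine proteases, fell from 33.8 ± 1.15 to 27.8 ± 1.04 FPKM (SD, n = 3; log2 fold change -0.29, SE 0.042, edgeR adjusted p = 5.29e-07). SPINT1 was at 27.7 and 26.0 FPKM (log2 fold change -0.10, edgeR adjusted p = 0.0691) and passed without si-NC library 2 or si-STRIP2 library 2, and WFDC3 had a log2 fold change of -0.18 (edgeR adjusted p = 0.593). The step in SPINT2 was small beside the change in SLPI, a secreted inhibitor that was chosen on this difference. Among 18 other lipocalin family genes 1 was tested, APOM, a carrier of sphingosine 1-phosphate. It went from 1.31 to 0.807 FPKM (log2 fold change -0.70, edgeR adjusted p = 0.0320). The overlapping gene BAG6 held 15113% as many counts as APOM, and the call was lost with DESeq2 and on leaving out si-NC library 2, si-NC library 3 or si-STRIP2 library 1.

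Some genes of the S100 family, in contrast, were abundant, although S100A8, S100A9 and S100P were not. Of 17 other S100 genes, 5 had 0 counts in every library. Of the same 17, 11 were tested, 2 fell and 4 rose, with a median log2 fold change of 0.04. S100A14, an epithelial member, fell from 213 ± 8.49 to 154 ± 2.67 FPKM (SD, n = 3; log2 fold change -0.48, SE 0.040, edgeR adjusted p = 4.54e-12). S100A4, known in cell motility, fell from 73.1 to 58.2 FPKM (log2 fold change -0.33, edgeR adjusted p = 8.09e-07). S100A10, the annexin A2 partner, rose from 127 to 142 FPKM (log2 fold change 0.16, edgeR adjusted p = 0.00224). S100A6 was at 194 and 195 FPKM and S100A11 at 107 and 104 FPKM, with edgeR adjusted p = 0.914 and 0.532. The family's members therefore moved in both directions. The number that fell was 2 in every alternative tried, whereas the number that rose was 1 in place of 4 with DESeq2 and 2 without si-NC library 3 or si-STRIP2 library 3.

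Other secreted or surface products of mucosal defence were few. Of 43, 8 were tested, 1 fell and 2 rose. Without single libraries 0 to 1 fell and 0 to 3 rose. MUC1, a membrane mucin, rose from 0.657 ± 0.216 to 1.15 ± 0.259 FPKM (SD, n = 3; log2 fold change 0.79, edgeR adjusted p = 0.00514). ANG, the ribonuclease angiogenin, rose from 2.25 to 3.07 FPKM (log2 fold change 0.42, edgeR adjusted p = 0.0394), a call lost with DESeq2, with limma on log2(FPKM + 1) and on leaving out si-NC library 2 or 3 or si-STRIP2 library 1 or 2. LGALS3, the lectin galectin-3, fell to a mean of 26.2 FPKM (log2 fold change -0.15, edgeR adjusted p = 0.0120). The MUC1 call was lost without si-NC library 2, and the LGALS3 call without si-NC library 1 or si-STRIP2 library 2. ADM and LEAP2, which encode antimicrobial peptides, had log2 fold changes of 0.13 and 0.62 and did not pass (edgeR adjusted p = 0.0874 and 0.121). ADM passed without si-STRIP2 library 3 (edgeR adjusted p = 0.0207), and LEAP2 passed with limma on log2(FPKM + 1) and log2(FPKM + 0.1) (adjusted p = 0.0210 and 0.0274). Lactoferrin (LTF), trefoil factor 3 (TFF3) and beta-defensin 2 (DEFB4A), which share mucosal secretions with LCN2, had 0 counts.

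Receptors, binding partners and protease targets of the 10 genes were 25, of which 14 were tested, 3 fell and 5 rose. Without si-NC library 2 the number that rose was 3. KLK7, a kallikrein protease that SLPI can inhibit, fell from 14.5 ± 0.582 to 8.12 ± 0.0493 FPKM (SD, n = 3; log2 fold change -0.84, SE 0.066, edgeR adjusted p = 8.28e-13). Of the phospholipid scramblases that bind SLPI, PLSCR1 fell from 15.2 to 10.2 FPKM and PLSCR4 rose from 0.837 to 1.54 FPKM. Their log2 fold changes were -0.58 and 0.88 (edgeR adjusted p = 4.15e-12 and 3.78e-06). EZR, which encodes ezrin, a partner of S100P, rose from 336 to 396 FPKM (log2 fold change 0.23, edgeR adjusted p = 3.76e-05). TXN, thioredoxin, was at 218 and 220 FPKM (edgeR adjusted p = 0.851). Elsewhere in this list, AGER rose from 2.61 to 3.63 FPKM (log2 fold change 0.46, edgeR adjusted p = 0.0085). BSG rose from 97.3 to 104 FPKM, and NPTN fell from 29.03 to 26.1 FPKM. Their log2 fold changes were 0.0948 and -0.16 (edgeR adjusted p = 0.0422 and 0.00239). Some receptors had few or no counts. LRP2 (megalin), which takes up LCN2 in kidney, had at most 5 counts in a library. TLR4, a calprotectin receptor, and CCR6, a beta-defensin receptor, had 0 counts, and MMP9, which LCN2 binds, had at most 10.

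The genes listed as regulators of these defence genes were all expressed. All 36 transcription factors and receptors of that list were tested, 24 fell and 2 rose, or 72.2% called, with a median log2 fold change of -0.38. Of all tested genes 54.8% were called and 27% called lower. The number that rose was 1 in place of 2 with DESeq2, with the replicate block, with the 1 FPKM filter, with no filter and on leaving out si-NC library 2 or 3 or si-STRIP2 library 2 or 3. JUN, an AP-1 subunit, was at 13.9, 15.0 and 15.4 FPKM in si-NC and at 2.92, 2.32 and 2.03 FPKM in si-STRIP2 (log2 fold change -2.60, SE 0.082, edgeR adjusted p = 3.11e-23). FOS, its partner, was at 20.5, 19.6 and 26.1 against 6.25, 5.22 and 4.94 FPKM (log2 fold change -2.01, SE 0.084, edgeR adjusted p = 5.41e-20). Neither gene's groups overlapped, as held for 58.6% of tested genes in either direction and 28.7% lower. Each fell by less than LCN2 did, which was chosen on this difference. KLF5, a factor of intestinal crypts, fell from 28.5 ± 0.847 to 14.2 ± 0.833 FPKM (SD, n = 3; edgeR adjusted p = 1.55e-18). CEBPG, a C/EBP family factor, fell from 80.5 to 45.7 FPKM, and HIF1A, the hypoxia factor, from 79.3 to 52.6 FPKM. Their log2 fold changes were -0.82 and -0.59 (edgeR adjusted p = 1.29e-17 and 1.99e-14).

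Within that list the calls were also counted by family, beside 54.8% of all tested genes called (27% lower and 27.8% higher). With 4 to 12 genes each, the families were too small to compare. The following genes were named after their values were seen. Of 5 NF-kB subunits 3 fell, led by REL at 1.06 and 0.470 FPKM (log2 fold change -1.17, edgeR adjusted p = 7.61e-13). NFKB1, NFKB2 and NFKBIZ, the last a co-activator of LCN2, had log2 fold changes of -0.07, 0.01 and -0.11 and did not pass (edgeR adjusted p = 0.281, 0.850 and 0.380). Of 4 C/EBP factors 2 fell, and CEBPB, at 22.6 ± 3.51 and 21.2 ± 1.13 FPKM (SD, n = 3), did not pass (edgeR adjusted p = 0.249). Of the 6 AP-1 subunits in the list 5 fell and FOSL1 rose from 20.8 to 27.7 FPKM (edgeR adjusted p = 6.01e-08). FOSB, at 3.03 and 0.340 FPKM and named above for its profile, was not in the list. The 4 epithelial ETS and KLF factors all fell, and beside KLF5 these were EHF, KLF4 and ELF3, which fell by 0.86, 0.98 and 0.12 on the log2 scale. Of 12 cytokine and Toll-like receptors 6 fell and 1, the tumour necrosis factor receptor TNFRSF1A, rose by little (log2 fold change 0.10, edgeR adjusted p = 0.0492). IL6ST, the shared signalling chain of the interleukin-6 family, fell from 10.4 to 6.83 FPKM (edgeR adjusted p = 4.47e-14). Both chains of the interleukin-17 receptor, IL17RA and IL17RC, were measured at 3.12 and 0.410 FPKM in si-NC and did not pass (edgeR adjusted p = 0.135 and 0.269). Whether any of these changes bears on LCN2 or SLPI was not tested.

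**Figure D3:**
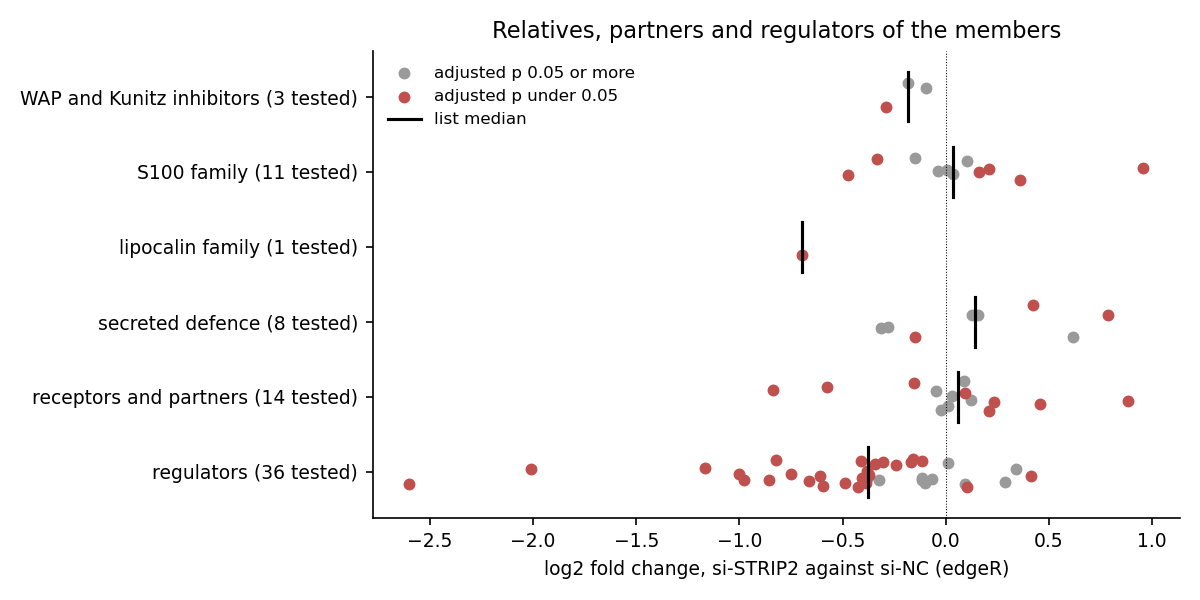
Fitted log2 fold change, si-STRIP2 minus si-NC (horizontal axis), of every tested gene in the 6 lists (rows); red points passed at an edgeR adjusted p under 0.05, grey points did not, and black bars are list medians. Vertical scatter within a row has no meaning. Most regulators lie left of 0 with JUN at -2.60 farthest, and the S100 genes and receptors lie on both sides.

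The neighbours of the 10 genes were compared next, to see whether the low levels extended along the chromosomes. Within 250 kb lay 215 genes, of which 70 were tested, 21 fell and 24 rose, or 64.3% called, beside 54.8% of all tested genes (27% lower and 27.8% higher). Their median log2 fold change was 0.01. A single neighbour was called at least 2-fold lower, SLC7A8 near SLC22A17 (log2 fold change -1.19). Around LCN2, 18 genes were tested, 5 fell and 8 rose. Their log2 fold changes ran from -0.51 (SLC25A25) to 0.91 (SLC25A25-AS1). The nearest tested genes, BBLN at 6812 bases and CIZ1 at 7798 bases, rose by 0.19 and 0.33 on the log2 scale. No tested neighbour of LCN2 within 250 kb fell as far as LCN2. That could hardly come out otherwise, since LCN2 was chosen on this difference and only 2 of 15687 tested genes had a lower fitted value.

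SLPI, PI3 and WFDC2 lie in the WAP gene cluster of chromosome 20, where 9 neighbours were tested, 3 fell and 2 rose. These counts pool the windows of all 3 genes, of which SLPI alone was tested. The 3 neighbours that fell, SDC4, PIGT and SYS1, all lay within 250 kb of SLPI itself. PIGT and SYS1 were at -0.23 and -0.26 on the log2 scale. Of the 2 that rose, STK4 (0.10) lay within that distance of SLPI, whereas TOMM34 was inside the window of PI3 only. SDC4, a heparan sulfate proteoglycan gene 70724 bases from the nearest of the 3, fell from 76.2 to 55.4 FPKM (log2 fold change -0.46). TOMM34, a mitochondrial import gene in the same region, rose from 20.6 to 32.6 FPKM (log2 fold change 0.66, edgeR adjusted p = 3.63e-13), with 191% as many counts in the overlapping PABPC1L. Around S100A8 and S100A9, in the epidermal differentiation region of chromosome 1, 13 were tested, 3 fell and 4 rose. The counts by region stand beside 54.8% of all tested genes called (27% lower and 27.8% higher), and each covers few genes. Around SAA1 all 6 tested genes were called, 3 in each direction. LDHA, the lactate dehydrogenase gene, rose there from 127 to 207 FPKM (log2 fold change 0.70, edgeR adjusted p = 4.08e-15). Near DEFB1, AGPAT5, a phospholipid acyltransferase gene, fell from 32.2 to 22.3 FPKM (log2 fold change -0.53, edgeR adjusted p = 1.08e-12). Around each of the 10 genes, then, expressed genes were present within 250 kb even where the defence gene itself had 0 counts.

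**Figure D4:**
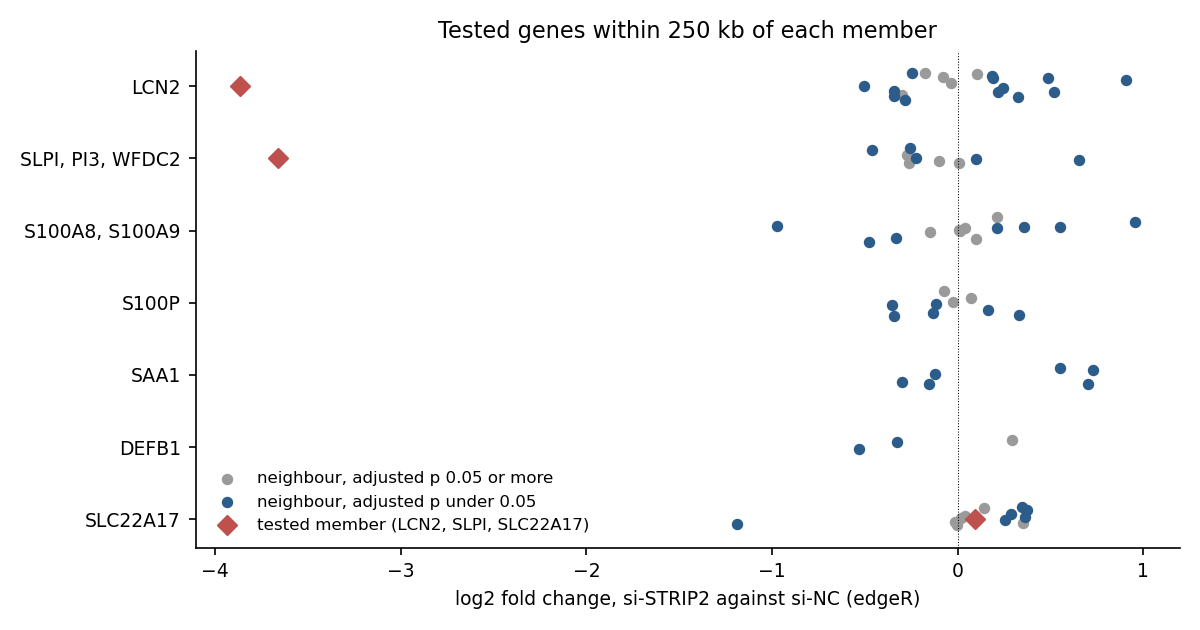
Fitted log2 fold change, si-STRIP2 minus si-NC (horizontal axis), of tested genes within 250 kb of the gene or genes named on each row; blue points passed at an edgeR adjusted p under 0.05, grey points did not, and red diamonds are LCN2, SLPI and SLC22A17 themselves. The neighbours scatter on both sides of 0, from SLC7A8 at -1.19 upward. LCN2 at -3.87 and SLPI at -3.66, which were chosen on this difference, lie below all of them.

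Narrower functional terms by which the deposited table joins LCN2 or SLPI with another of the 10 genes were examined last, chosen after the values were seen. Broad terms were left out, as was a term none of whose other genes was tested. Their counts stand beside 54.8% of all tested genes called, 27% lower and 27.8% higher. Antibacterial humoral response joins SLPI, PI3, WFDC2 and DEFB1. Of its 79 other genes 9 were tested, 2 fell and 2 rose. Acute-phase response joins LCN2 and SAA1, and of its 62 other genes 14 were tested, 7 fell and 3 rose. Specific granule lumen, a neutrophil compartment, joins LCN2 and SLPI, and of its 65 other genes 34 were tested, 12 fell and 12 rose. Serine-type endopeptidase inhibitor activity covered 121 other genes, of which 40 were tested, 18 fell and 7 rose. Endopeptidase inhibitor activity, joins SLPI, PI3 and WFDC2, and of its 44 other genes 16 were tested, 10 fell and 6 did not pass. Response to lipopolysaccharide joins SLPI, S100A8 and S100A9, and of its 187 other genes 78 were tested, 27 fell and 13 rose.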

How the data were processed

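Poly(A) RNA of 6 HCT116 libraries was sequenced from directional libraries. Per the submitters' processing notes, bcl2fastq 2.20.0.422, FastQC 0.10.1, cutadapt 1.9.1, HISAT2 2.2.1, HTSeq 0.6.1 and GRCh38.p13 were used; the annotation release and the strand setting of the counting are not given in the sources used here. The authors deposited raw read counts and FPKM values per gene, per the file headers, with an exonic size. The deposited FPKM values equal the counts scaled by size and column total to within their rounding (largest difference 0.005).

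The counts were fitted with edgeR 4.0.16 in R 4.3.3: filterByExpr (minimum count 10) kept 15687 genes, libraries were scaled by TMM (factors 0.990 to 1.01), and 2-sided quasi-likelihood p-values were adjusted over all tested genes (Benjamini-Hochberg). A gene was called at an adjusted p under 0.05. An exact permutation of 3 against 3 libraries cannot go below p = 0.1 and was not used. Intervals of summed counts are exact (Clopper-Pearson, 95%), and the floor for a count of 0 is 3 counts; both cover counting error only, since reads carried no molecular identifiers. Levels between genes are compared only as FPKM. Profiles were compared as TMM-scaled log2 CPM (prior count 2), each centred on its si-NC mean. Promoter motifs were searched in RefSeq sequences of GRCh38.p14.

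The 10 genes and the lists were chosen with earlier results of these data known. Named from each list were up to 3 called genes with the smallest adjusted p at 1 FPKM or more and the 2 genes with the highest level, likewise for the neighbours, and for LCN2 and SLPI the 5 nearest profiles. The tests were tried on simulated data. Alternatives were DESeq2 1.42.0, limma 3.58.1 on log2(FPKM + 1) and log2(FPKM + 0.1), other scalings and filters, a replicate block and leaving out each library.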

Additional observations from a re-analysis of the deposited data

How the results depend on the processing

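STRIP2, LCN2 and SLPI stayed lower in si-STRIP2 under all 14 alternatives tried, and the count of genes called stayed between 7238 and 8604. On the limma log2(FPKM + 1) scale, which understates low genes, LCN2 was at -2.37 and SLPI at -2.35. Leaving out 1 library at a time gave -4.12 to -3.70 for LCN2, -3.85 to -3.53 for SLPI, -0.54 to -0.41 for STRIP2 and -0.07 to 0.26 for SLC22A17. With no filter on low counts, 5 of the 10 genes were fitted at least 2-fold lower, the added ones being S100P, WFDC2 and DEFB1 with 1 to 19 counts. At 100 kb in place of 250 kb, 19 neighbours were called, 9 lower and 10 higher. DESeq2 called 3 S100 genes, 0 lipocalin genes (edgeR called 1) and, over the 6 lists, 8 genes higher in place of 13. A filter of 1 FPKM in 3 libraries called 2 WAP and Kunitz genes. Without single libraries, the number called was 1 to 2 for WAP and Kunitz genes, 4 to 7 for S100 genes, 0 to 1 for lipocalins, 1 to 4 for secreted defence genes, and 8 to 12 for genes higher over the 6 lists. S100A6 turned to -0.0011 with DESeq2 and -0.013 with the 1 FPKM filter (-0.021 to 0.025 without single libraries), S100A11 to 0.013 (-0.075 to 0.013), and TXN to -0.0068 with that filter (-0.051 to 0.051). These 3 passed no test in any of these settings, and the cause of each change was not tested.

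No pairing by replicate number was detected: deviations of same-numbered libraries correlated at -0.086, -0.013 and -0.072. Those of differently numbered libraries correlated at -0.040 to 0.112. These values do not show whether same-numbered libraries were prepared together. With the replicate block 8293 genes were called in place of 8599, and over the 6 lists 30 fell and 11 rose in place of 32 and 13. Depth leaves WFDC2, DEFB1 and the 4 genes at 0 counts with upper limits only, S100P with 19 counts in all, and SLPI with 5 to 7 counts in each si-STRIP2 library.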
